A study of Mus musculus with 6 samples.

Results

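The inversin compartment is the proximal segment of the primary cilium. A set of 5 genes, of this compartment or of cilia more widely, was followed in newborn mouse epidermis labelled as Eed knockout or control. The set holds the compartment's core genes Invs, Nek8 and Anks6 and the ciliary genes Anks3 and Enkd1, and was found by gene symbol. It makes up 5 of the 24453 genes listed in each count file, and all 5 passed the filter on low counts that left 14700 genes. Anks6 and Enkd1 were selected on their log2 fold changes between Eed cKO and control in these same libraries, which were among the lowest of all genes, and the other 3 were chosen by their known ties to them. Every difference of these 5 genes is therefore given as a description, with no test.

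RNA was sequenced from 3 Eed conditional knockout (cKO) libraries, labelled Eed-/-, and 3 control libraries, all from back skin at postnatal day 0. The cells were sorted as progenitor-rich interfollicular epidermis by surface EpCAM, Sca1 and a high level of α6-integrin. The Eed protein is a core part of Polycomb repressive complex 2, the enzyme that methylates histone H3 at lysine 27. The sources used here name neither the strain, the alleles nor the driver of the deletion, and do not say whether each library is 1 animal. The p-values measure the spread between libraries, which may be technical in part. Total counts ran from 20998149 to 27447679 in Eed cKO and from 25481306 to 29998531 in control, and 1 count was worth between 0.0364 and 0.0484 CPM (counts-per-million, TMM-normalised) in Eed cKO and between 0.0320 and 0.0391 CPM in control. Eed itself was at 37.0, 33.7 and 29.2 CPM in Eed cKO libraries 1, 2 and 3, against 45.1, 41.1 and 53.1 CPM in control libraries 1, 2 and 3, and did not pass the test (log2 fold change -0.48, edgeR adjusted p 0.252). Which exons were deleted is not stated, and reads from the remaining exons would still be counted. Why Eed counts remained in Eed cKO was not tested. The 9 basal keratinocyte markers summed to 30572 to 40299 CPM in Eed cKO and 35798 to 42451 CPM in control, mostly from Krt5. Trp63, Col17a1 and Krt15 had every Eed cKO library below control and did not pass (edgeR adjusted p 0.266 to 0.394). Epcam, a sort marker, had every one above it and was called higher (log2 fold change 0.77, edgeR adjusted p 0.0433). The rest of the list overlapped between the groups. These markers were named after their values were seen. Foxj1, the master regulator of cells with many motile cilia, had no count in any Eed cKO library and 0.0320 CPM in control 2, with no count in the other control libraries.

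A primary cilium is a single non-motile antenna that grows from the mother centriole and carries signalling receptors. In the inversin compartment, inversin (Invs) anchors a module in which the ankyrin-repeat protein Anks6 binds and activates the kinase Nek8. Loss of module members causes cystic kidney disease and left-right patterning defects in mouse and human. In embryonic mouse epidermis, basal progenitors bear primary cilia that take part in Hedgehog and Notch signalling. Anks3 is a partner protein that binds Anks6 through its SAM domain. Enkd1 is a microtubule-binding protein that promotes cilium formation and, in mouse basal keratinocytes, the orientation of the mitotic spindle.

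Of the 5 genes, Anks6 and Enkd1 were several-fold lower in Eed cKO, whereas the other 3 had Eed cKO means between 78.4% and 121% of the control mean. Anks6, Anks3 and Enkd1 had every Eed cKO library below every control library, an arrangement found in 9.22% of the 14700 genes. In the edgeR quasi-likelihood fit over all genes, Anks6 and Enkd1 lay below an adjusted p of 0.05 in the lower direction, as did 0.816% of all genes, and 0 of the 5 did in the higher direction, against 3.39% of all genes. In either direction 4.21% of all genes were called. Nothing is read from these counts, because that contrast chose the genes. The median log2 fold change, Eed cKO over control, was -0.35 over the 5 genes and -0.01 over all tested genes.

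**Figure D1:**
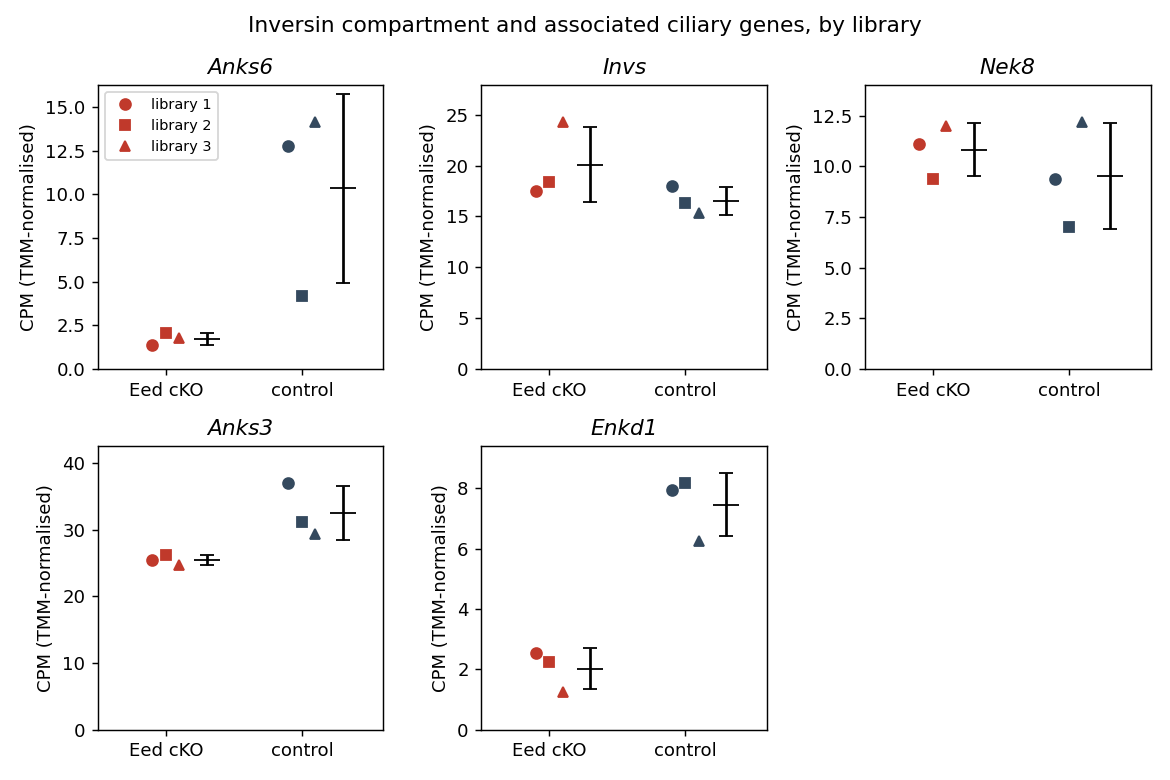
Level of each gene in TMM-normalised CPM (y axis, from 0) in 3 Eed cKO (left, red) and 3 control (right, dark blue) libraries, with the mean and SD beside the points. All Eed cKO points of Anks6 lie at or below 2.05 CPM and all those of Enkd1 at or below 2.55 CPM, under every control point, while the groups overlap for Invs and Nek8.

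Anks6 is the scaffold that holds Nek8 in the compartment. It lies on the minus strand of chromosome 4, from 47015669 to 47057427 on GRCm38, and shares no exonic base with another annotated gene. It had 38, 51 and 36 counts in Eed cKO libraries 1, 2 and 3, against 341, 130 and 362 counts in control libraries 1, 2 and 3. Scaled for library size, these were 1.38, 2.05 and 1.74 CPM in Eed cKO, against 12.8, 4.15 and 14.1 CPM in control. The Eed cKO libraries sat close together and low, and control 2 stood well below the other control libraries but still above every Eed cKO library. The means were 1.72 ± 0.332 CPM in Eed cKO and 10.3 ± 5.41 CPM in control (SD, n = 3 each), so that Eed cKO stood at 16.7% of control. The fitted log2 fold change was -2.58 ± 0.48 (SE), and 29 of the 14700 genes had one as low or lower. Without control 2 it was -2.95, and without control 3 it was -2.29. The summed level of 5 endothelial markers was 33.6, 5.94 and 8.18 CPM in Eed cKO libraries 1, 2 and 3, against 28.9, 4.98 and 34.8 CPM in control libraries 1, 2 and 3. That of 8 Langerhans and myeloid markers was 393, 74.5 and 116 CPM in Eed cKO, against 523, 129.9 and 227 CPM in control. Both sums were lowest in library 2 of control, as Anks6 was, and so was the sum of basal keratinocyte markers, but in Eed cKO the endothelial and the Langerhans and myeloid sums were highest in library 1, where Anks6 was lowest. EpCAM, for which the cells were sorted, is not a surface protein of endothelial cells, whereas Langerhans cells carry it. The part of these markers in the spread of Anks6 was not tested. In bulk RNA, fewer cells that express a gene and less RNA per cell cannot be told apart.

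Invs, the anchor of the compartment, lies 1222 kb from Anks6 on chromosome 4 (48279760 to 48431954, plus strand), with 8 annotated protein-coding genes between them. It was at 17.5, 18.4 and 24.3 CPM in Eed cKO libraries 1, 2 and 3, against 18.0, 16.3 and 15.3 CPM in control libraries 1, 2 and 3. The groups overlapped, and Eed cKO 3 stood above the rest. The means were 20.07 ± 3.69 CPM in Eed cKO and 16.5 ± 1.34 CPM in control (SD, n = 3 each), with a log2 fold change of 0.28 ± 0.23 (SE), or 0.12 without Eed cKO 3. Of its 11431 exonic bases, 226 are shared with Tex10 on the opposite strand. The strand setting of the counting is not given, and Tex10 was at 51.3 CPM in Eed cKO and 49.5 CPM in control.

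Nek8, the kinase that Anks6 activates, lies on chromosome 11 (78166106 to 78176675, minus strand). It was at 11.1, 9.39 and 12.0 CPM in Eed cKO libraries 1, 2 and 3, against 9.39, 7.00 and 12.2 CPM in control libraries 1, 2 and 3. The groups overlapped almost wholly. The means were 10.8 ± 1.32 CPM in Eed cKO and 9.52 ± 2.60 CPM in control (SD, n = 3 each). The log2 fold change was 0.19 ± 0.31 (SE), and went from 0.02 without control 2 to 0.40 without control 3.

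Anks3, which resembles Anks6 in joining ankyrin repeats to a SAM domain, lies on chromosome 16 (4941436 to 4964205, minus strand). It was at 25.4, 26.2 and 24.7 CPM in Eed cKO libraries 1, 2 and 3, against 37.0, 31.1 and 29.3 CPM in control libraries 1, 2 and 3. The groups did not overlap, and the Eed cKO libraries spread little. The shift was small beside that of Anks6, with 25.5 ± 0.758 CPM in Eed cKO and 32.5 ± 4.05 CPM in control (SD, n = 3 each) and a log2 fold change of -0.35 ± 0.20 (SE).

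Enkd1 lies on chromosome 8 (105703651 to 105708210, minus strand). It had 70, 56 and 26 counts in Eed cKO libraries 1, 2 and 3, against 212, 256 and 160 counts in control libraries 1, 2 and 3. In CPM it was at 2.55, 2.25 and 1.26 in Eed cKO, against 7.93, 8.18 and 6.25 in control. Every Eed cKO library was far below every control library, with the lowest value of each group in the library numbered 3. The means were 2.02 ± 0.676 CPM in Eed cKO and 7.45 ± 1.05 CPM in control (SD, n = 3 each), so that Eed cKO stood at 27.1% of control. The log2 fold change was -1.88 ± 0.44 (SE), and 92 of the 14700 genes had one as low or lower. Of its 3659 exonic bases, 185 are shared with 4933405L10Rik on the opposite strand, whose own level was 0.150 CPM in Eed cKO and 0.203 CPM in control.

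Promoter sequences of Enkd1 and Nek8 are shown because they set a gene that was several-fold lower in Eed cKO beside one whose groups overlapped. Both run 5′ to 3′ from 250 bases before to 50 bases after the gene start, from RefSeq on GRCm38.p6. That source held 4 of the 5 genes (Enkd1, Nek8, Invs and Anks3) and had no entry for Anks6. Enkd1 is at chr8:105708159-105708458 and Nek8 at chr11:78176617-78176916, both on the minus strand. Capitals mark an RFX X-box, the inverted repeat bound by the RFX factors of ciliary genes, which was searched on both strands with 0 to 3 bases between its arms.
Enkd1: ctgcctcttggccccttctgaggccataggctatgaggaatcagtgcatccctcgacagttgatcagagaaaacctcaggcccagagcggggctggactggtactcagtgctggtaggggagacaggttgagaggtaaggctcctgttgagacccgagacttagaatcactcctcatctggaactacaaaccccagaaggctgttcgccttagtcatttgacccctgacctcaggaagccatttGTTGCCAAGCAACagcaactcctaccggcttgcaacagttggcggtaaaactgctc
Nek8: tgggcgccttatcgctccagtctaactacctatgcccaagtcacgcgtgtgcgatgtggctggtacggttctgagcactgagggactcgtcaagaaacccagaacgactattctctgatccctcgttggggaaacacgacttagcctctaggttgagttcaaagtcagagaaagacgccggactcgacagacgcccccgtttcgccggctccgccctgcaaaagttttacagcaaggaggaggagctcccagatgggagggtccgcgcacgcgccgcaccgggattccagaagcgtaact
The Enkd1 window held 1 match, GTTGCCAAGCAAC, which begins 6 bases before the RefSeq gene start, and the windows of Nek8, Invs and Anks3 held none. Among all 32851 promoter windows of this length, 1.53% held a match, and among 116 windows of 97 other listed ciliary genes 8.62% did. The Enkd1 window also had 6 CpG dinucleotides, against 25 in Nek8, 25 in Invs and 29 in Anks3, with a median of 7 over all windows. A match is a feature of the letters and shows no binding. Whether the match or the CpG count bears on the lower Enkd1 level was not tested.

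Ratios of counts within a library do not depend on scaling between libraries. There were 0.125, 0.218 and 0.145 Anks6 counts per Nek8 count in Eed cKO libraries 1, 2 and 3, against 1.36, 0.594 and 1.16 in control libraries 1, 2 and 3. Enkd1 counts per Nek8 count were 0.230, 0.239 and 0.105 in Eed cKO, against 0.845, 1.17 and 0.513 in control. In both ratios every Eed cKO library was below every control library. Invs counts per Nek8 count were 1.58, 1.96 and 2.02 in Eed cKO, against 1.91, 2.33 and 1.26 in control, so the Eed cKO values lay inside the control range. Its mean was 1.85 ± 0.241 in Eed cKO and 1.83 ± 0.541 in control (SD, n = 3 each).

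**Figure D2:**
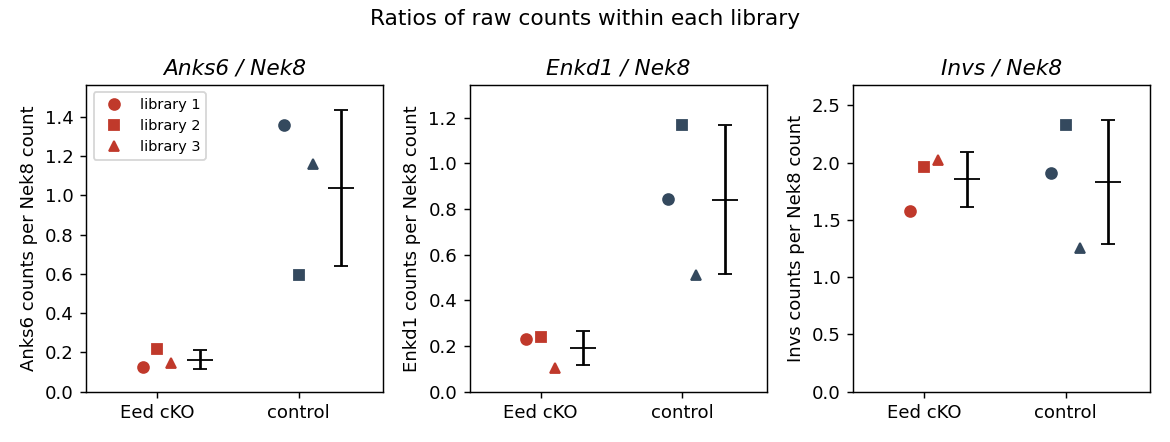
Ratio of raw counts of Anks6, Enkd1 and Invs to those of Nek8 within each library (y axes, from 0), for 3 Eed cKO (left, red) and 3 control (right, dark blue) libraries, with mean and SD. Anks6 per Nek8 is at most 0.218 in Eed cKO and at least 0.594 in control, while Invs per Nek8 overlaps between the groups.

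To set levels of different genes side by side, they were divided by exonic length, taken here as the union of annotated exons. The transcripts expressed may be shorter than that union. The annotation used for counting is not given, and the RNA was amplified, so the order between genes is approximate. In Eed cKO the order of mean levels was Anks3 at 4.99 CPM per kb, Nek8 at 2.07, Invs at 1.76, Enkd1 at 0.552 and Anks6 at 0.322 CPM per kb. In control it was Anks3 at 6.36 CPM per kb, Enkd1 at 2.04, Anks6 at 1.93, Nek8 at 1.82 and Invs at 1.45 CPM per kb. The ranges over libraries of Nek8 and Invs overlapped in Eed cKO, as did those of Enkd1 and Anks6, and the other neighbours in that order were apart. In control Anks3 was apart from the rest. Among the lower 4 in control, the neighbours in the order (Enkd1 and Anks6, Anks6 and Nek8, Nek8 and Invs) overlapped. In control the range of Anks6, from 0.775 to 2.64 CPM per kb, took in every value of Invs, Nek8 and Enkd1. In Eed cKO the highest library of Anks6 or Enkd1, at 0.697 CPM per kb for Enkd1, was below the lowest of Invs, at 1.53 CPM per kb.

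**Figure D3:**
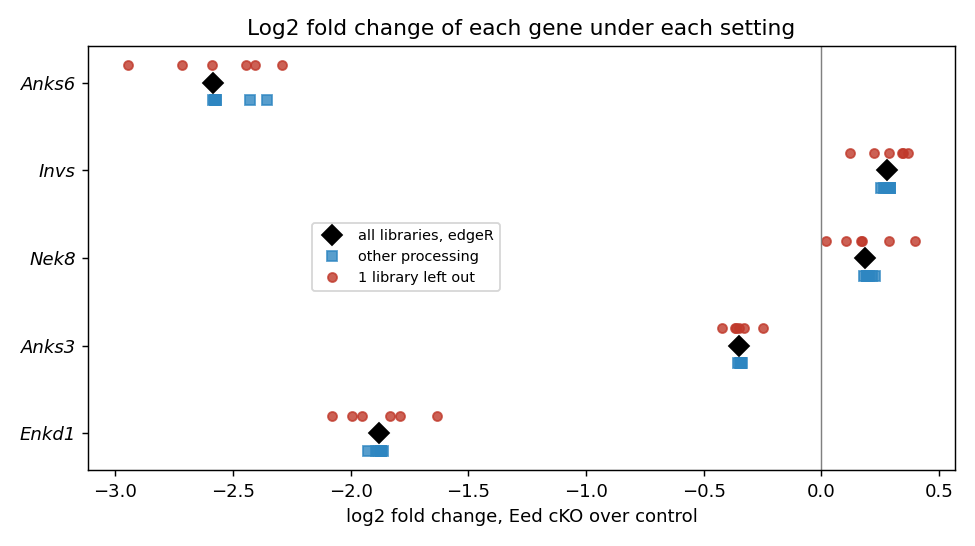
Log2 fold change of each gene, Eed cKO over control (x axis), from all libraries with edgeR (diamonds), with 1 library left out (circles) and under other processing (squares). Anks6 stays between -2.95 and -2.29 and Enkd1 between -2.08 and -1.63, and none of the 5 genes changes sign.

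Genes listed around the module gave no call. They were partners of Invs, Nek8, Anks6 and Anks3, the polycystin genes, and genes that handle lipid-modified ciliary cargo. Of the 11 tested, 0 were higher and 0 lower with edgeR, and likewise 0 with DESeq2 and with limma-voom. An unadjusted p under 0.05 was found for 3 of the 11, against 14.9% of all tested genes. The median log2 fold change of the 11 was -0.27. Rp2, which switches off the GTPase that releases lipid-modified cargo in the cilium, was at 22.0, 24.3 and 21.3 CPM in Eed cKO, against 30.6, 31.6 and 31.2 CPM in control (log2 fold change -0.47, edgeR adjusted p 0.267). For Unc119b, a chaperone of lipid-modified ciliary proteins, the log2 fold change was -0.54 with an edgeR adjusted p of 0.334. For the polycystin gene Pkd1 it was -0.38 with an edgeR adjusted p of 0.332. Bicc1, an RNA-binding partner of Anks3 and Anks6 named for that role after its values were seen, was at 1.53 ± 0.687 CPM in Eed cKO and 2.59 ± 0.387 CPM in control (SD, n = 3 each).

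Relatives of the members by sequence also gave no call. Of 8 tested genes of the ANKS and NEK families, 0 passed with edgeR, DESeq2 or limma-voom, and 1 had an unadjusted p under 0.05. That gene, Nek3, was at 2.19, 6.18 and 2.42 CPM in Eed cKO, against 5.87, 7.80 and 10.04 CPM in control, with overlapping groups (log2 fold change -1.13, edgeR adjusted p 0.251). Nek4 (log2 fold change -0.30, edgeR adjusted p 0.577) and Nek6 (0.16, edgeR adjusted p 0.827) had smaller differences.

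Across the ciliary lists as a whole, 100 of 108 genes besides the members were tested, and 0 were higher and 1 lower in Eed cKO with edgeR. Unadjusted p-values under 0.05 numbered 15 of the 100, near the 14.9% of all tested genes. They were 1 higher and 14 lower, against 8.63% of all genes higher and 6.24% lower. The higher gene was Rfx5, which was listed by its family and is not known as a ciliary factor. DESeq2 and limma-voom each also called 0 higher and 1 lower. The called share is to be read against 0.816% of all genes called lower. Of the 100 genes, 71 had a negative log2 fold change, against 51.3% of all tested genes, with a median of -0.15. The gene called was Cep290, which builds the links of the transition zone at the base of the cilium. It was at 35.6, 41.7 and 39.3 CPM in Eed cKO, against 78.3, 78.8 and 61.4 CPM in control, with the groups far apart. It differed by a log2 fold change of -0.91 with an SE of 0.18, at an edgeR adjusted p of 0.0114. The call was lost without Eed cKO 3 (edgeR adjusted p 0.0517) and without control 2 (0.0508), and over all alternatives the adjusted p ran from 0.000171 to 0.0517.

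Of 19 transition zone genes tested, Cep290 was lower, 0 were higher and 18 did not pass. An unadjusted p under 0.05 was found for 3 of the 19, against 14.9% of all tested genes. Neither Tmem67, encoding meckelin (log2 fold change -0.74, edgeR adjusted p 0.203), nor the scaffold gene Rpgrip1l (-0.48, edgeR adjusted p 0.332) passed. Of 11 genes of the centriole cap and distal appendages 0 passed with edgeR, DESeq2 or limma-voom. A negative log2 fold change was found for 10, against 51.3% of all tested genes. An unadjusted p under 0.05 was found for 3, against 14.9% of all tested genes. Ccp110 encodes the cap protein that Enkd1 helps to remove from the centriole's end, and was at 12.8, 20.1 and 11.6 CPM in Eed cKO, against 22.0, 25.9 and 23.0 CPM in control (log2 fold change -0.67, edgeR adjusted p 0.199). The centriolar kinesin gene Kif24 (log2 fold change -0.58, edgeR adjusted p 0.194) and the kinase gene Ttbk2, which licenses cilium growth (-0.53, edgeR adjusted p 0.228), also did not pass.

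Of 29 genes of intraflagellar transport, the traffic along the ciliary shaft, 0 passed with edgeR, DESeq2 or limma-voom and 2 had an unadjusted p under 0.05. Log2 fold changes were -0.82 for Ift80, -0.55 for Ift74 and -0.40 for Ttc21b (edgeR adjusted p 0.244, 0.325 and 0.397). None of 15 BBSome and ciliary GTPase genes passed with any of the 3 tools or had an unadjusted p under 0.05. Log2 fold changes were 0.47 for Arl13b, a GTPase of the ciliary membrane, -0.52 for Bbs1 and -0.30 for Inpp5e, with edgeR adjusted p of 0.405, 0.539 and 0.546. Of 7 tested genes listed as ciliary transcription factors, 0 passed with edgeR, DESeq2 or limma-voom. An unadjusted p under 0.05 was found for 3 of the 7, against 14.9% of all tested genes. The list took in the RFX family, of which some members bind the X-box of ciliary genes. Rfx2 was at 108, 52.4 and 76.7 CPM in Eed cKO, against 148, 106 and 110.1 CPM in control, so Eed cKO 1 overlapped control (log2 fold change -0.62, edgeR adjusted p 0.214). It passed without Eed cKO 1 (log2 fold change -0.91, edgeR adjusted p 0.0386) and with no filter on low counts (-0.62, edgeR adjusted p 0.0460), and over all alternatives its adjusted p ran from 0.0236 to 0.548. For Rfx5 and Rfx7 the log2 fold changes were 0.54 and -0.37, with edgeR adjusted p of 0.265 and 0.274. Rfx5 was listed by its family and is not known as a ciliary factor.

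**Figure D4:**
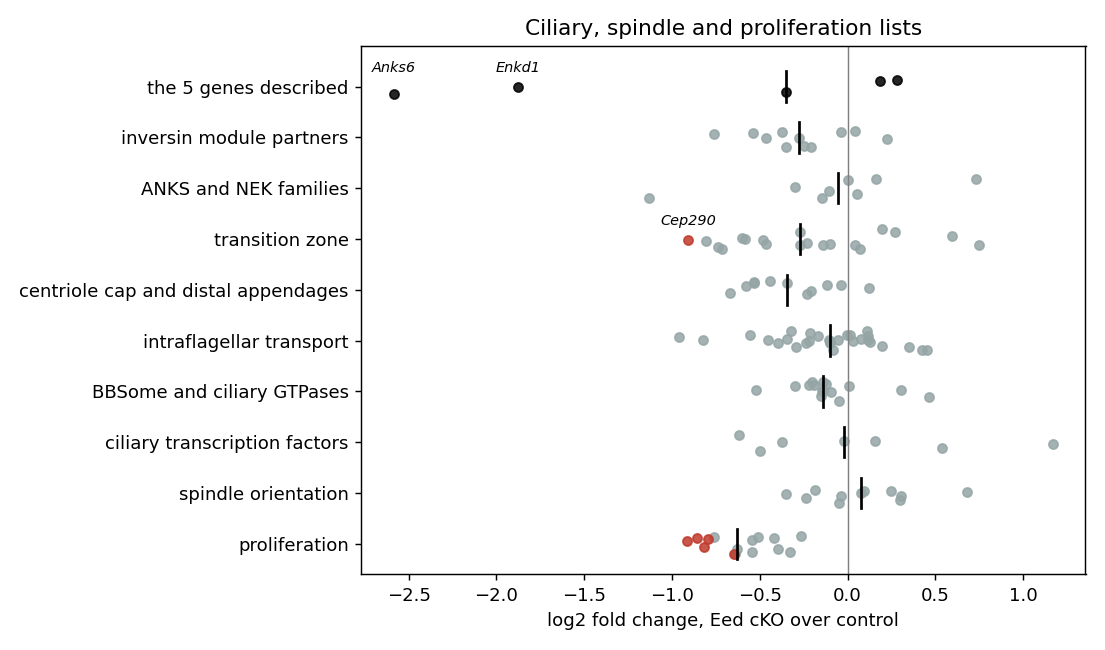
Log2 fold change, Eed cKO over control (x axis), of the 5 genes (black, top) and of each tested gene of the ciliary, spindle orientation and proliferation lists, with the list median as a vertical line. Red points were called lower by edgeR and grey points did not pass. Anks6 at -2.58 and Enkd1 at -1.88 were chosen for low values in this contrast. They therefore lie below every gene of the lists shown, the lowest of which is Nek3 at -1.13, and nothing is read from that.

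Because Enkd1 also acts on the mitotic spindle, spindle and cell cycle genes were set beside it. Of 11 tested spindle orientation genes, 0 passed with edgeR, DESeq2 or limma-voom and 0 had an unadjusted p under 0.05. The log2 fold change was -0.35 for Numa1, which tethers spindle microtubules at the cortex, 0.30 for Gnai3 and -0.23 for Pard3 (edgeR adjusted p 0.381, 0.554 and 0.587). Of 15 proliferation genes 5 fell, 0 rose and 10 did not pass, against 0.816% of all genes called lower and 3.39% called higher. All 15 had a negative log2 fold change, against 51.3% of all tested genes. An unadjusted p under 0.05 was found for 11, all lower, against 6.24% of all tested genes in that direction. Mki67 was at 902 ± 41.8 CPM in Eed cKO and 1564 ± 147 CPM in control (SD, n = 3 each; log2 fold change -0.79, edgeR adjusted p 0.00765). Aurkb, a kinase gene of mitosis, fell by 0.86 and the topoisomerase gene Top2a fell by 0.92 on the log2 scale, with edgeR adjusted p of 0.0162 and 0.0164. The other two were Tyms and Mcm6, named after their values were seen. The count called lower was 2 without Eed cKO 1, 3 without Eed cKO 2, 2 without Eed cKO 3, 2 without control 2 and 1 without control 3. It was 8 with no filter on low counts, 7 with DESeq2 and 6 with limma-voom. Aurkb was lost without Eed cKO 2, Eed cKO 3 or control 3 (edgeR adjusted p up to 0.0966). Top2a was lost without Eed cKO 1, Eed cKO 3, control 2 or control 3 (edgeR adjusted p up to 0.0906). The summed level of the 15 genes was 1896 to 2179 CPM in Eed cKO and 3200 to 3731 CPM in control, and its part in the lower Enkd1 and Anks6 levels was not tested.

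Markers of other skin cells were set beside these genes, both as sums and one by one. The sum of 8 Langerhans and myeloid markers overlapped between the groups and was mostly Cd74, H2-Aa, H2-Ab1 and Csf1r, but all 7 tested markers had a negative log2 fold change (median -0.93). Cx3cr1, a chemokine receptor gene of myeloid cells, was at 2.11, 2.81 and 0.968 CPM in Eed cKO, against 7.48, 7.41 and 8.01 CPM in control, and passed (log2 fold change -1.95, edgeR adjusted p 0.0281). That call was lost without Eed cKO 1, Eed cKO 3 or any control library (edgeR adjusted p up to 0.0988). The lysozyme gene Lyz2 had groups apart but did not pass (log2 fold change -1.70, edgeR adjusted p 0.0503), and the Langerhans cell gene Cd207 had no count in Eed cKO and at most 0.299 CPM in control.

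The sum of 8 hair follicle markers also overlapped between the groups and was mostly Krt17, Lef1 and Sox9, while single members separated. Krt71, a keratin gene of the inner root sheath, was at 2.30, 0.442 and 1.89 CPM in Eed cKO, against 3.59, 6.77 and 13.4 CPM in control, and passed narrowly (log2 fold change -2.36, edgeR adjusted p 0.0495). That call was lost with upper-quartile scaling, with the minimum of 1 CPM in 3 libraries, with limma-voom and without Eed cKO 2, Eed cKO 3, control 2 or control 3 (edgeR adjusted p up to 0.284). Krt25, Krt27 and Lef1 had every Eed cKO library below control, and Lhx2 and Sox9 every one above it, and none of these passed (edgeR adjusted p 0.0722 to 0.194).

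The sum of 7 suprabasal markers was 5067 to 7927 CPM in Eed cKO and 3242 to 4337 CPM in control, and that of 6 Merkel cell markers was 7.75 to 14.1 CPM in Eed cKO and 0.195 to 1.82 CPM in control. Both were higher in every Eed cKO library, and the Merkel cell genes Sox2, Isl1 and Atoh1 had no count in control. Called higher were the suprabasal gene Krt10 (log2 fold change 1.25, edgeR adjusted p 0.00126), Isl1 (edgeR adjusted p 0.00202) and Sox2 (edgeR adjusted p 0.00452). The other 6 tested suprabasal markers did not pass, and 1 of them, Krtdap, had a negative log2 fold change (-0.16). The sum of 9 multiciliated cell markers was also higher in every Eed cKO library, at 20.1 to 24.3 CPM in Eed cKO and 8.59 to 15.3 CPM in control. It was mostly Dnah11 and Ccdc39, and 0 of the 4 tested markers passed. Dnah11 had groups apart (log2 fold change 1.28, edgeR adjusted p 0.0812), and Ccdc39 had overlapping groups (0.52, edgeR adjusted p 0.667). The T cell list was Thy1 almost alone, at 32.7 to 53.3 CPM in Eed cKO and 28.4 to 28.9 CPM in control, and other skin cells also express Thy1. The defining T cell genes Cd3d, Cd3e and Cd3g were at or near 0, at most 0.241 CPM in Eed cKO and 0.748 CPM in control. The sums of 7 melanocyte, 6 fibroblast and 5 endothelial markers overlapped between the groups. The markers named here were picked after their values were seen, and whether any list bears on Anks6 or Enkd1 was not tested.

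No tested gene next to the members on the chromosome was called. The 5 nearest protein-coding genes on each side of each member comprised 48 genes, of which 44 were tested. With edgeR 0 were higher and 0 lower, as with DESeq2 and limma-voom. Of the 44, 6 had an unadjusted p under 0.05, against 14.9% of all tested genes. They were 1 higher and 5 lower, against 8.63% of all tested genes higher and 6.24% lower. Around Anks6 the 9 tested neighbours had log2 fold changes from -1.36 for Trim14 to 0.06 for Sec61b, and the next coding gene on the higher-coordinate side, Galnt12, had one of -0.30 (edgeR adjusted p 0.883). Gabbr2, on the other side at 23.8 kb, was too low to test, at 0.501 CPM in Eed cKO and 0.0486 CPM in control. Around Enkd1 8 of 9 tested neighbours had a negative log2 fold change, against 29 of the 44 around all members and 51.3% of all tested genes. The closest tested gene, Pard6a, ends 0.155 kb away (log2 fold change -0.11, edgeR adjusted p 0.978), and Acd, a telomere protein gene, lies 2.55 kb away (-0.68, edgeR adjusted p 0.111). These neighbours were named for their place or their extreme value after the values were seen.

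**Figure D5:**
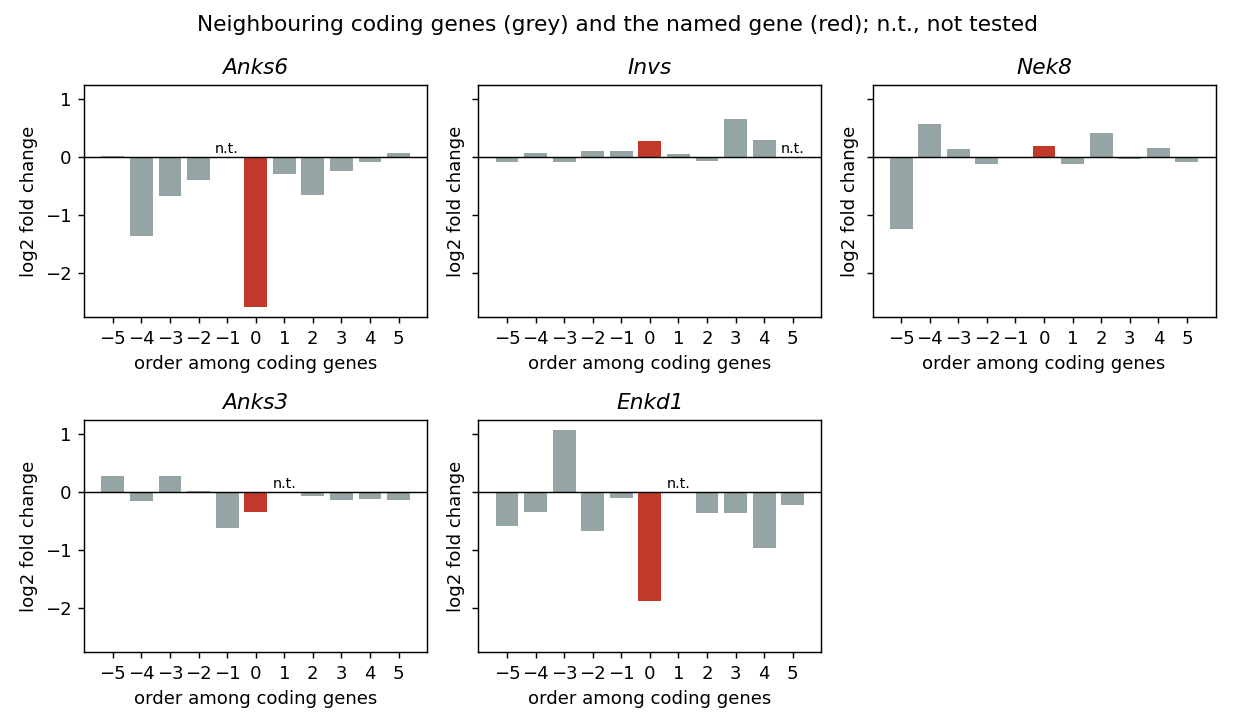
Log2 fold change, Eed cKO over control (y axis), of the 5 nearest protein-coding genes on each side of each gene (grey) in order along the chromosome (x axis), with the named gene in red at 0 and genes too low to test marked n.t. The bars of Anks6 (-2.58) and Enkd1 (-1.88), which were chosen for low values in this contrast, are lower than any neighbour's, and nothing is read from that.

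The genes whose levels most resembled those of Anks6 over the 6 libraries, by Pearson r of log2 CPM, were Dgkz (0.996), Ecsit (0.988), Pdzd2 (0.987), Usp25 (0.982) and Xylt1 (0.981). All share with Anks6 low Eed cKO libraries and a dip in control 2. Their own log2 fold changes, from -0.92 for Xylt1 to -0.13 for Ecsit, were smaller than that of Anks6, and none passed edgeR's test (adjusted p 0.120 to 0.890). Those most like Enkd1 were Wdr62 (0.999), Zfp839 (0.997), Usp49 (0.994), Irx4 (0.994) and Heatr5a (0.989). Wdr62, which encodes a spindle pole and centrosome protein, was at 15.7, 14.7 and 11.1 CPM in Eed cKO, against 29.4, 29.0 and 25.1 CPM in control, and passed (log2 fold change -1.01, edgeR adjusted p 0.0208). That call was lost without Eed cKO 2, Eed cKO 3 or any control library (edgeR adjusted p up to 0.0954). Irx4, an Iroquois homeobox gene, was at 133 ± 22.0 CPM in Eed cKO and 248 ± 17.2 CPM in control (SD, n = 3 each; log2 fold change -0.90, edgeR adjusted p 0.00677). With 2 groups of 3 libraries, such a likeness mostly restates the group difference and the spread that the libraries share.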

How the data were processed

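Each of the 6 files deposited by the authors holds the raw, unnormalised count of every gene symbol in 1 library. The build mm10 and the tools HTSeq 0.6.1, TopHat2 2.0.13, DESeq2 1.6.3 and Cufflinks 2.2.1 stand in the submitters' processing notes without their roles. The sources used here give no annotation or strand setting. Per the labels' protocols, RNA was amplified before library construction, so counts are not independent molecules.

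Counts were analysed with edgeR 4.0.16 in R 4.3.3. After filterByExpr and TMM scaling, each of 14700 genes had a quasi-likelihood F-test on genotype alone, with Benjamini-Hochberg adjustment over all of them and a threshold of 0.05. The SE is the log2 fold change over the square root of F. CPM values are TMM-normalised. Data of this size were simulated in 3 draws, each with 200 changed genes, up or down at random. On average 47.6% of genes changed 2-fold and 76.9% of those changed 4-fold were called, and 8.00% of calls were unchanged genes. The real data gave 499 higher and 120 lower calls, so these shares may not hold for them.

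The members and gene lists were chosen with earlier results of these data known, and 1 further gene is not reported here. Beyond the members and Eed, up to 3 genes per ciliary, spindle or proliferation list with the smallest p, and the 5 genes most like Anks6 and Enkd1 (mean of at least 5 CPM; log2 CPM with prior count 2; no predicted, microRNA or small nucleolar genes), were named by rule. Gene positions and exons come from GENCODE M21 (GRCm38, which is mm10), where 23797 of 24453 symbols were found. The fit was repeated with upper-quartile or RLE scaling, with no low-count filter (1 count or more), with a minimum of 1 CPM in 3 libraries, with limma-voom (limma 3.58.1) or DESeq2 1.42.0, with the replicate number as a block, and without each library in turn. Figures were drawn with matplotlib 3.10.9.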

Additional observations from a re-analysis of the deposited data

How the results depend on the processing

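No log2 fold change of the 5 genes moved by more than the SD between replicates under any of the 13 alternatives. Leaving out each library gave -2.95 to -2.29 for Anks6, -2.08 to -1.63 for Enkd1, -0.42 to -0.25 for Anks3, 0.12 to 0.37 for Invs and 0.02 to 0.40 for Nek8. The contrast that chose Anks6 and Enkd1 is no test of them; in it, Anks6 was not below an adjusted p of 0.05 with limma-voom, nor Enkd1 without Eed cKO 2, Eed cKO 3, control 1, control 2 or control 3. The count of other ciliary genes called lower was 1, and 2 with no filter or with the replicate block, when Rfx2 joined Cep290 (edgeR adjusted p 0.0236 with the block). The replicate block called 8 proliferation genes lower, against 5. The count of other ciliary genes called lower ran from 0 to 2 when each library was left out, at 0 without Eed cKO 3 or control 2. Over all genes, 499 were called higher and 120 lower. DESeq2 called 764 higher and 270 lower, no filter left 257 lower, and the replicate block gave 269 lower. Leaving out each library gave 302 to 456 higher and 35 to 118 lower genes. With no block fitted, deviations of log2 CPM from the group mean were compared between same-numbered libraries. They correlated at 0.23, 0.11 and -0.0014 across genes for numbers 1, 2 and 3. Control 3 matched Eed cKO 2 best, so the numbers were not taken as pairs. The cause of these changes was not tested. At about 26 to 70 counts per Eed cKO library, the levels of Anks6 and Enkd1 carry a sizeable counting error.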
